A study of Mus musculus with 12 samples.

Results

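CT26 tumours given radiation alone were set directly against CT26 tumours given Complex 1 alone, to find which genes each single treatment favours. The comparison uses 6 of the 12 libraries of the series, 3 per treatment, and members were taken from the group labels. CT26 is a colon carcinoma line that came from a BALB/c mouse, and bulk RNA from the tumour tissue was sequenced. The radiation group is tumours of mice that received radiation and no compound. The Complex 1 group is tumours of mice that received Complex 1 and no radiation. According to the series title, Complex 1 is a platinum compound switched on by X-rays. Untreated control tumours, also 3 libraries, give the untreated level of each gene. They are a separate group and not a measurement before treatment. The 3 libraries of tumours given both treatments entered the estimate of spread and the filter on low genes. They are shown in the plot of 12 genes by library. No group carries an engineered allele in the labels, which name all cells WT. The labels give no dose, no time between treatment and collection, and no statement on whether the sequenced tumour lay inside the irradiated field. They also do not say whether the replicates came from separate animals, so p-values measure only the spread between these libraries, which may be technical.

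Ionising radiation breaks DNA, and damaged cells stabilise the transcription factor p53, which switches on genes for cell cycle arrest, repair and cell death. Damaged or dying tumour cells can also release nucleic acids that are sensed as if they were viral, which leads to type I interferon and to the interferon-stimulated genes. Neutrophils are drawn into tissue by chemokines that bind the receptor CXCR2, and macrophages clear dead cells and present antigen. In bulk tissue, fewer cells of a type and less RNA per cell cannot be told apart, and this holds for every gene list below.

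Total counts were 15.6 to 18.1 M (mega counts) in the Complex 1 libraries and 17.9 to 19.0 M in the radiation libraries. The first principal component of the 6 libraries held 42.2% of the variance and separated the treatments, with Complex 1 from -28.5 to -10.1 and radiation from 15.8 to 27.4. Of the epithelial markers, Epcam, Krt19, Krt7, Vil1, Cdx1, Cdx2 and Cldn7 stayed at or below 0.24 FPKM (fragments per kilobase of exon and per mega count) in all 6 libraries, Krt8 at or below 0.67 and Cdh1 at or below 1.05. Krt20 lay between 66.6 and 146 FPKM, Msln between 55.4 and 66.5 and Vim between 1158 and 1273.

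In both groups 1 library stood apart in immune genes. The T cell list, given as the mean difference from the control mean in log2(FPKM + 1), was 0.77 in Complex 1 replicate 3 against -0.11 and 0.04 in the other Complex 1 libraries. In radiation replicate 2 it was -0.34, against 0.75 and 0.66 in the other radiation libraries. Results that rest on immune genes are therefore also given without these libraries, a choice made after seeing the data. Both libraries were picked by their immune gene levels, 1 as the highest of its group and 1 as the lowest. The choice therefore fixes the direction in which immune counts move without them, and those counts are a description that supports no treatment difference. Among the controls, replicate 2 had 0.02 FPKM of Xist, the RNA that silences an X chromosome in female cells, while the other 11 libraries of the series had 9.20 to 14.2.

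Of 13668 genes tested, 513 were higher with radiation (3.75% of the tested genes) and 751 were higher with Complex 1 (5.49%), by edgeR's quasi-likelihood test at an adjusted p under 0.05. Most differences were small: the median log2 fold change, always radiation over Complex 1 here, was 0.47 among genes higher with radiation and -0.42 among those higher with Complex 1, and -0.0013 over all tested genes. Differences of at least 2-fold numbered 61 toward radiation and 112 toward Complex 1. The 3 radiation libraries did not overlap the 3 Complex 1 libraries in 500 of the 513 and in 740 of the 751 genes, while 28.4% of all tested genes showed no overlap. Absence of overlap in a called gene is therefore a description and no further support for the call. The 12 largest differences per direction were also picked among genes without overlap. Gzmc, Gzme, Ccl8, Cxcl2, Cxcl3 and Il1b below are among these. The counts depended on single libraries. Without Complex 1 replicate 2 they were 139 and 259, without radiation replicate 1 they were 214 and 210, without Complex 1 replicate 1 they were 295 and 423, and without Complex 1 replicate 3 they were 731 and 709. No gene called in one direction was called in the other in any of these fits.

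**Figure D1:**
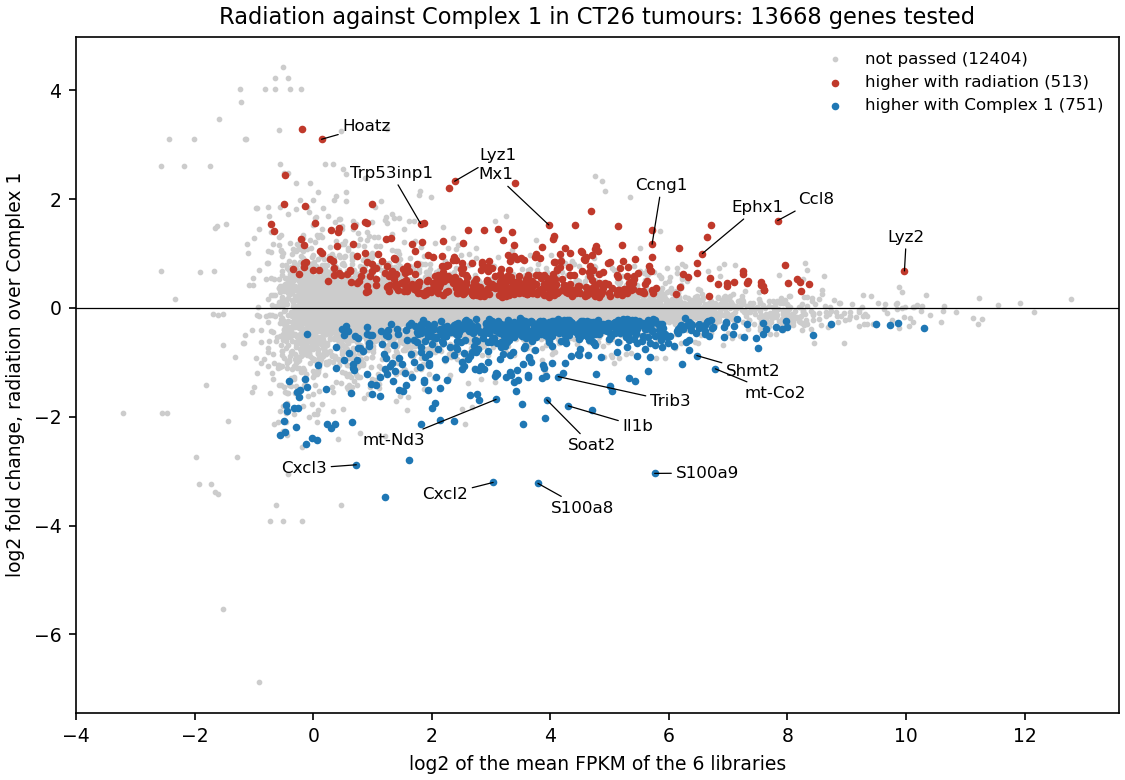
Each point is 1 of the 13668 tested genes, placed by the log2 of its mean FPKM over the 6 libraries and by its log2 fold change, radiation over Complex 1. Red points are the 513 genes higher with radiation and blue points the 751 higher with Complex 1, and the neutrophil genes S100a8 and S100a9 and the chemokine Cxcl2 lie below -3.

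The gene lists divided by treatment. Radiation was higher in part of the p53 targets, type I interferon response genes, nucleic acid sensors and macrophage genes, and Complex 1 was higher in part of the neutrophil genes, CXCR2 ligands, DNA replication and mitosis genes, amino acid and one-carbon genes of the ATF4 pathway and cholesterol genes. ATF4 is the transcription factor that raises amino acid supply under stress. The counts behind these statements are given list by list below. Of the 513 genes higher with radiation, 60 were in any of the 43 lists, as were 93 of the 751 higher with Complex 1. Of these 153 calls, 50 held whichever of the 6 libraries was left out, and 4 (Cd63, Cd86, Palb2 and Manf) held in none of the 6 fits.

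**Figure D2:**
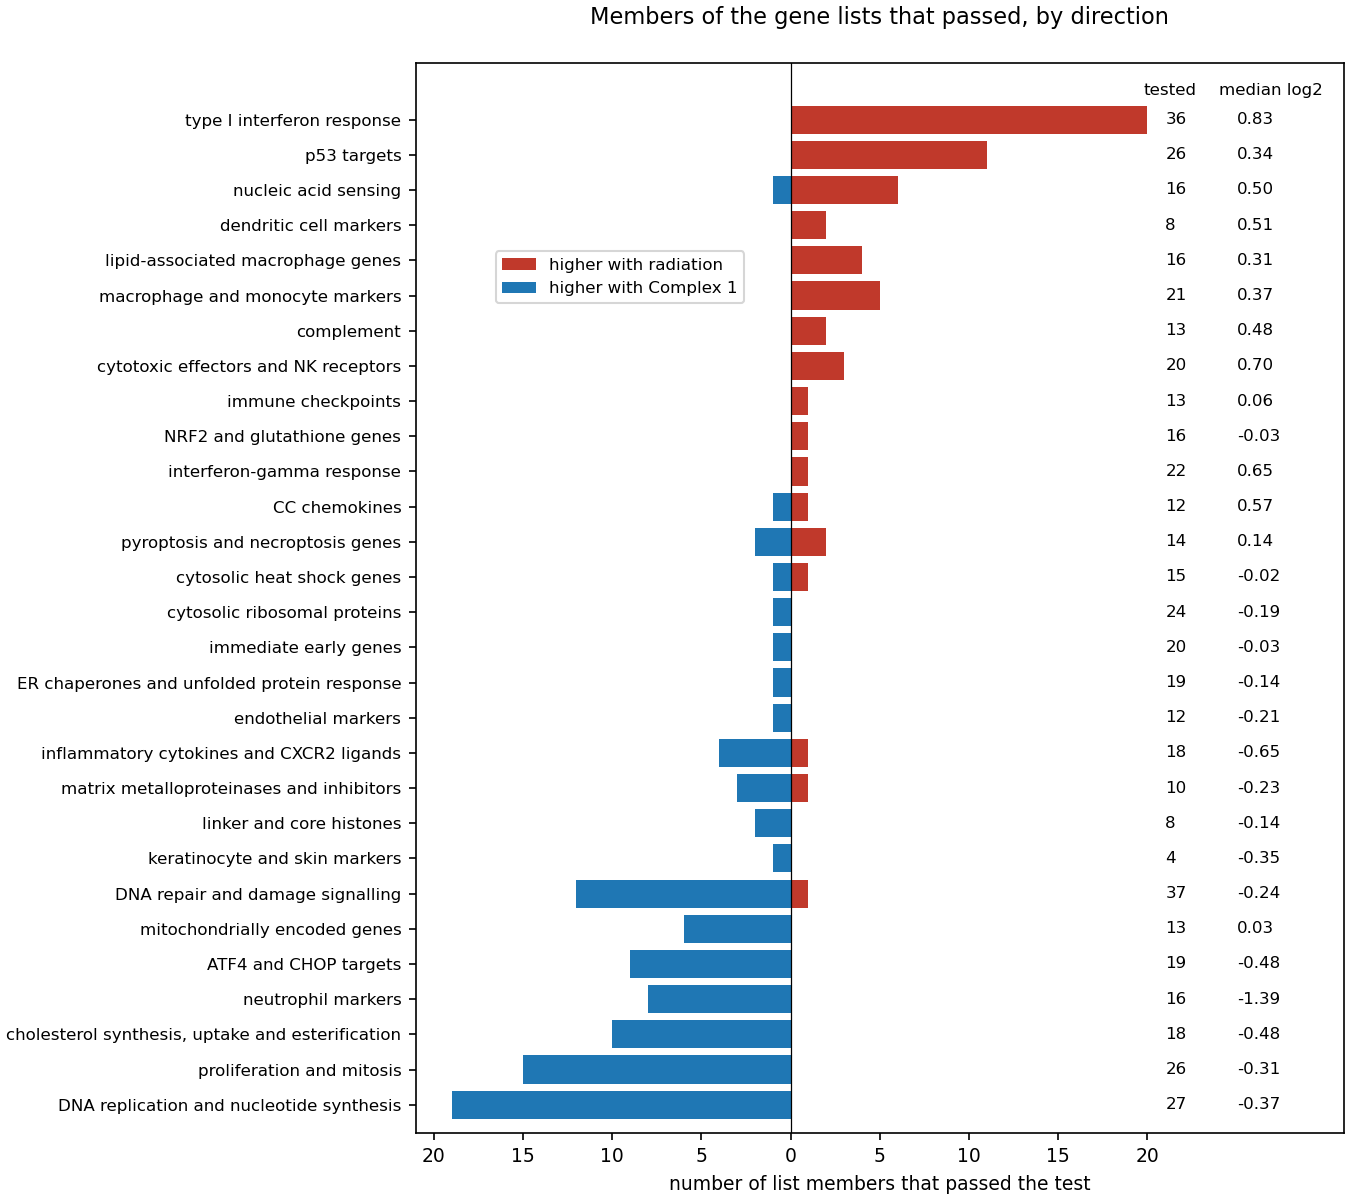
Bars count the members of each gene list that passed the test, to the right for genes higher with radiation and to the left for genes higher with Complex 1. The columns of numbers give the members tested and the median log2 fold change of all tested members. Type I interferon genes reach 20 of 36 on the radiation side, and DNA replication genes 19 of 27 on the Complex 1 side.

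Targets of p53, the transcription factor that responds to DNA damage, were in part higher with radiation. Of 28 list members, 26 were tested (Gdf15 and Perp lay under the filter), 11 were higher with radiation and none was higher with Complex 1, with a median log2 of 0.34. Ccng1 (ENSMUSG00000020326, chr11:40639379-40646138, minus strand in mm39), which encodes cyclin G1, stood at 28.8, 33.7 and 34.6 FPKM in the Complex 1 libraries and at 71.7, 78.9 and 67.9 in the radiation libraries (log2 fold change 1.17 ± 0.08 (SE), adjusted p = 1.11e-05). Trp53inp1 (chr4:11156431-11174379, plus strand), a p53-induced regulator of autophagy and cell death, stood at 1.65, 1.78 and 1.92 against 4.84, 5.69 and 5.17 FPKM (log2 fold change 1.55 ± 0.10 (SE), adjusted p = 7.56e-06). Ephx1, the microsomal epoxide hydrolase, stood at 61.3, 60.6 and 67.5 against 126, 139 and 114 FPKM (log2 fold change 1.00 ± 0.09 (SE), adjusted p = 1.59e-04). In these 3 genes every radiation library lay far above every Complex 1 library, and the Complex 1 libraries lay near the untreated ones.

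Set against untreated tumours, Ccng1 had a log2 fold change of 1.29 (adjusted p = 3.48e-06) with radiation and of 0.12 (adjusted p = 0.585) with Complex 1. Trp53inp1 had 1.64 (adjusted p = 3.48e-06) with radiation and 0.09 (adjusted p = 0.760) with Complex 1. These comparisons share the 3 control libraries. Eda2r, a receptor of the TNF receptor family that binds ectodysplasin A2, differed by 1.19 ± 0.12, adjusted p = 2.40e-04, and Mdm2, the ubiquitin ligase that limits p53, by 0.56 ± 0.06, adjusted p = 6.60e-04. Cdkn1a, the cell cycle inhibitor p21, stood at 36, 44.6 and 38.5 FPKM with Complex 1 and 56.3, 71.7 and 63.9 with radiation (log2 fold change 0.69 ± 0.13 (SE), adjusted p = 0.00879). The other members that passed were Zmat3 at 0.82, Phlda3 at 0.62, the translesion polymerase Polk at 0.54, Dcxr at 0.77 and the cell death effector Bax at 0.39. Among the cell death genes that did not pass were Bbc3, which encodes Puma, at -0.06 (adjusted p = 0.816), Pmaip1, which encodes Noxa, at 0.40 (adjusted p = 0.395), and the death receptor Fas at 0.53 (adjusted p = 0.188). Between 9 and 13 members passed whichever of the 6 libraries was left out, and 12 passed without Complex 1 replicate 3 and radiation replicate 2.

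**Figure D3:**
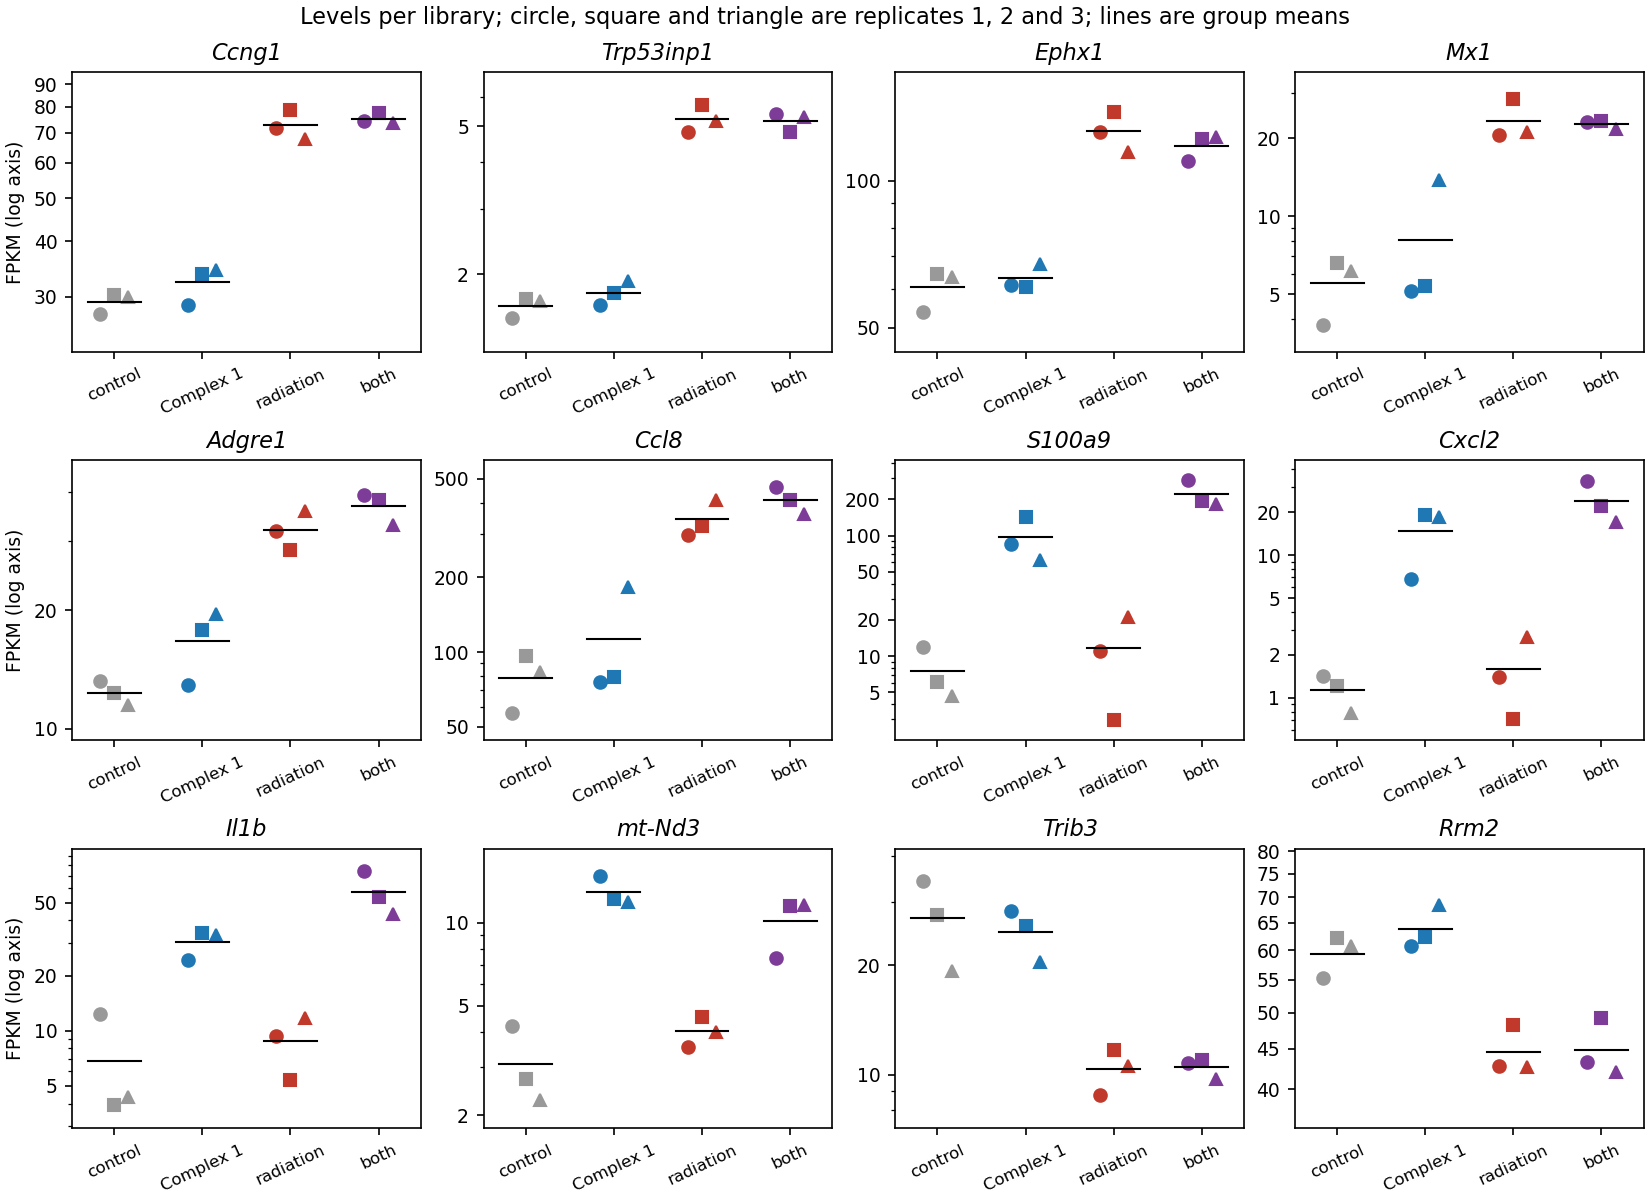
FPKM of 12 genes in each of the 12 libraries on a log axis, by group. Circles, squares and triangles are replicates 1, 2 and 3, and the line is the group mean. Ccng1, Trp53inp1 and Ephx1 are high with radiation alone and with both treatments, S100a9, Cxcl2 and Il1b are high with Complex 1 alone and with both, and Trib3 and Rrm2 are low with radiation alone and with both.

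Type I interferon response genes were higher with radiation in 20 of 36 members, all of them tested, with a median log2 of 0.83, and none was higher with Complex 1. Promoters of 2 of these genes are shown with a stretch that resembles the interferon-stimulated response element, the site bound by interferon regulatory factors and the STAT complex. Each is the 250 bases before the RefSeq start site, 5′ to 3′ on the gene's strand, in GRCm38.p6, a different build from the mm39 of the deposited table. Capitals mark matches to GAAANNGAAA on either strand.
Ifit1: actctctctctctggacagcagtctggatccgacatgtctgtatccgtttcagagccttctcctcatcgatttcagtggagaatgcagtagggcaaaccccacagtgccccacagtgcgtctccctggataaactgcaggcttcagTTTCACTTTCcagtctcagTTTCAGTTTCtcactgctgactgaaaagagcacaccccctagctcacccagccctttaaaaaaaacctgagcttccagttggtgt
Oas1a: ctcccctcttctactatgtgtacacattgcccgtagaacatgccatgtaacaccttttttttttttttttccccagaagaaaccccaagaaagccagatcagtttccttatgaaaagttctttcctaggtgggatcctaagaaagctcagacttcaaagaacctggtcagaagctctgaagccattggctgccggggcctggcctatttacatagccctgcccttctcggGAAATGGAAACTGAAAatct
The Ifit1 window is chr19:34640639-34640888 on the plus strand and its matches, both on the minus strand, start 104 and 85 bases before the start site. The Oas1a window is chr5:120907526-120907775 on the minus strand, with 2 matches on the gene's strand, 20 and 14 bases before the start, that overlap. The motif occurs in 936 of 27025 RefSeq promoters (3.46%), in 10 of the 25 listed interferon genes that have a promoter entry (40.0%), in 31 of 387 promoters of genes higher with radiation (8.01%) and in 18 of 503 of genes higher with Complex 1 (3.58%). A match describes the letters only.

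Ifit1, an RNA-binding antiviral protein, stood at 11.4, 10.9 and 33 FPKM in the Complex 1 libraries and at 49.4, 59.2 and 48.5 in the radiation libraries (log2 fold change 1.5 ± 0.33 (SE), adjusted p = 0.0154). Oas1a, an enzyme that activates RNase L when it meets double-stranded RNA, stood at 18.4, 19.6 and 31.3 against 36.8, 44.5 and 43.5 FPKM (log2 fold change 0.85 ± 0.19 (SE), adjusted p = 0.0167), but 68.8% of its 31-base sequences also occur in another locus, chiefly Oas1g, so its counts are uncertain. Mx1 (chr16:97248235-97264107, minus strand in mm39), an antiviral GTPase, stood at 5.17, 5.37 and 13.8 against 20.6, 28.3 and 21.2 FPKM (log2 fold change 1.52 ± 0.31 (SE), adjusted p = 0.0104). Neither Ifit1 nor Mx1 overlapped between treatments, and Complex 1 replicate 3 was the highest Complex 1 library in both. Against untreated tumours Mx1 had a log2 fold change of 2.05 (adjusted p = 0.00207) with radiation and of 0.53 (adjusted p = 0.541) with Complex 1. Mx2 differed by 1.43 ± 0.29, adjusted p = 0.0109, Samd9l by 0.77 ± 0.16, adjusted p = 0.0109, the interferon regulator Irf7 by 1.30 and the deubiquitinase Usp18 by 1.14. Isg15, the ubiquitin-like modifier, did not pass at 0.74 (adjusted p = 0.0783), with 56.1, 68.6 and 134 FPKM under Complex 1 and 131, 132 and 169 under radiation.

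The interferon calls turned on the Complex 1 libraries. The list's mean difference from control was -0.16, -0.09 and 0.91 in the Complex 1 libraries and 1.11, 1.14 and 1.21 in the radiation libraries, so replicate 3 of Complex 1 lay near the radiation group. Without that library 35 of the 36 members were higher with radiation, and without it and radiation replicate 2 there were 34. Without Complex 1 replicate 2 no member passed (Mx1 then had a log2 of 1.30 and an adjusted p of 0.051), 4 passed without Complex 1 replicate 1, 9 without radiation replicate 1 and 11 without radiation replicate 3. Over the 6 fits that leave out 1 library, the median of the list lay between 0.69 and 1.27.

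Sensors that detect foreign or misplaced nucleic acid were higher with radiation in 6 of 16 tested members, with a median log2 of 0.50. Tlr3, the endosomal receptor for double-stranded RNA, stood at 5.83, 6.29 and 9.14 FPKM with Complex 1 and 11.8, 14.5 and 12.4 with radiation (log2 fold change 0.86 ± 0.18 (SE), adjusted p = 0.0123). Ifih1, the cytosolic RNA sensor MDA5, stood at 6.89, 6.56 and 11.4 against 14.9, 15.6 and 15.2 FPKM (log2 fold change 0.88 ± 0.19 (SE), adjusted p = 0.0134), and the RNA-editing enzyme Adar differed by 0.51 ± 0.11, adjusted p = 0.0131. Tlr7, Ifi204 and Dhx58 also passed, at 0.59, 0.48 and 0.93. Ifih1 and Dhx58 are also in the type I interferon list and are counted among its 20 calls, so the lists are not separate results. Irf3, the factor that the DNA and RNA sensors activate, was higher with Complex 1 (-0.32 ± 0.08, adjusted p = 0.0308), a call lost in 4 of the 6 fits that leave out a library (radiation replicate 1 or 2, Complex 1 replicate 1 or 2). The DNA sensor Cgas and its adaptor Sting1 did not pass, at -0.29 (adjusted p = 0.0865) and 0.22 (adjusted p = 0.207). No sensor was higher with radiation without Complex 1 replicate 2 and 1 without Complex 1 replicate 1, against 9 without Complex 1 replicate 3 and 10 without that library and radiation replicate 2.

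**Figure D4:**
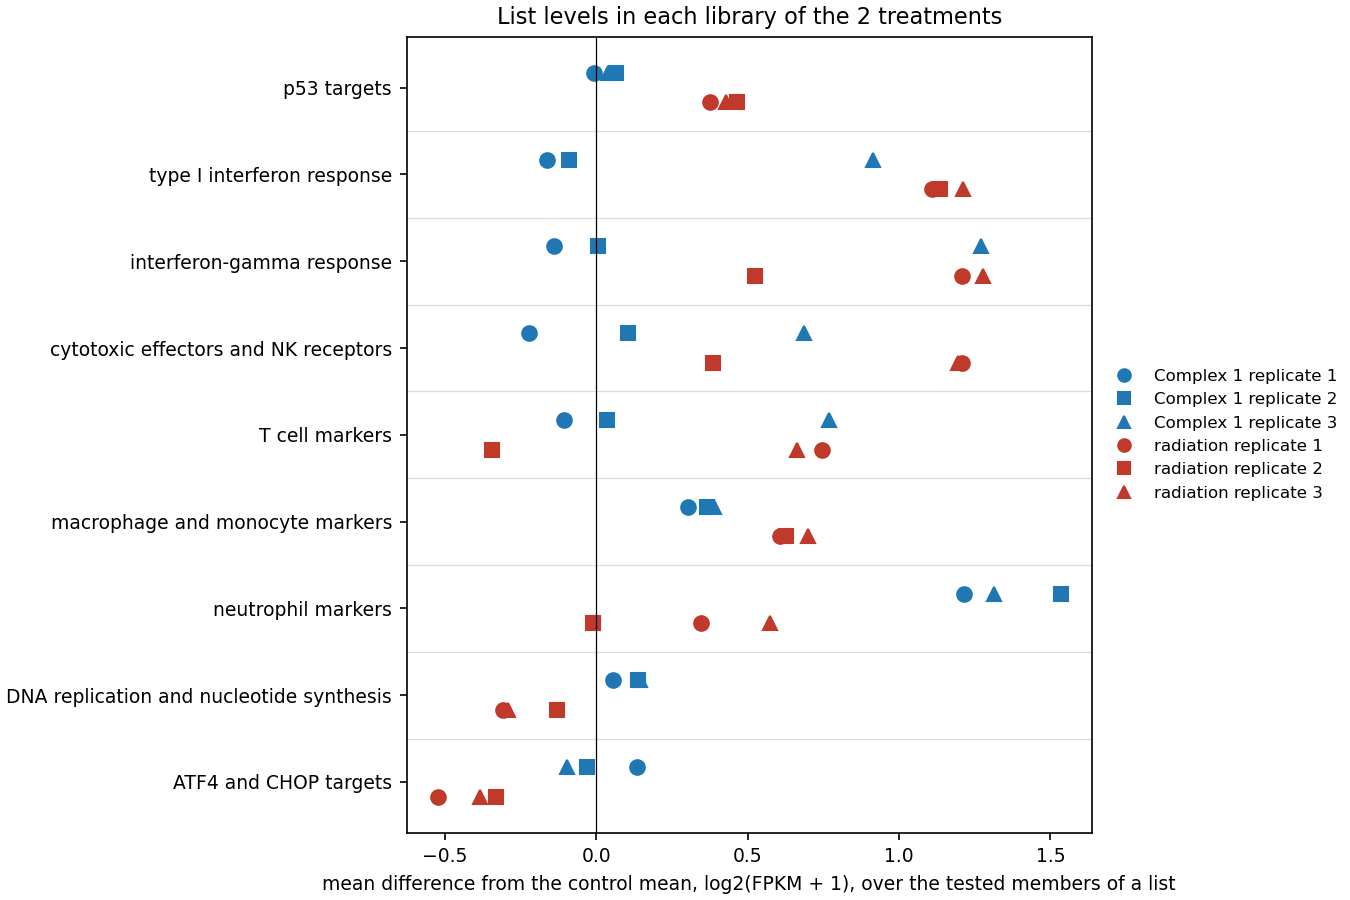
Mean difference from the control mean over the tested members of 9 gene lists, in log2(FPKM + 1), for the 3 Complex 1 libraries (blue) and the 3 radiation libraries (red). Complex 1 replicate 3 lies at 0.91 in the type I interferon list and radiation replicate 2 at -0.34 in the T cell list, each away from its own group. The p53, type I interferon, macrophage, neutrophil, replication and ATF4 lists do not overlap between the treatments.

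Genes driven by interferon-gamma and genes of T and NK cells gave few calls with all libraries. Of 22 interferon-gamma response genes, Cxcl10, a chemokine for activated T cells, was the 1 that passed, at 9.65, 11 and 25.3 FPKM with Complex 1 and 24.5, 34.9 and 33.9 with radiation (log2 fold change 1.02 ± 0.28 (SE), adjusted p = 0.0400). The highest Complex 1 library, replicate 3, overlapped the lowest radiation library. The median of the list was 0.65. No member passed when radiation replicate 1, 2 or 3 or Complex 1 replicate 1 or 2 was left out, whereas 17 passed without Complex 1 replicate 3 and 20 without it and radiation replicate 2. Cxcl9, another T cell chemokine, stood at 32.8, 29.8 and 57.3 against 64.9, 37.2 and 68.6 FPKM and did not pass (adjusted p = 0.202).

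Granzymes, the proteases of cytotoxic granules, made up the calls among the 20 tested cytotoxic and NK genes, of which 3 were higher with radiation and none with Complex 1 (median log2 0.70). Gzmc stood at 6.23, 10.5 and 18.2 FPKM with Complex 1 and 46.6, 28.4 and 44.8 with radiation (log2 fold change 1.78 ± 0.49 (SE), adjusted p = 0.0385), and Gzma at 15, 18.7 and 20.9 against 28.5, 41 and 43.7 (log2 fold change 1.05 ± 0.30 (SE), adjusted p = 0.0473). Gzme differed by 2.30 ± 0.66, adjusted p = 0.0473, and 42.1% of its 31-base sequences occur elsewhere, chiefly in Gzmd. In all 3 the groups did not overlap, but the controls spread widely: Gzmc had 4.09, 8.31 and 25.1 FPKM there. Gzmb at 1.10 (adjusted p = 0.0821) and the pore-forming perforin gene Prf1 at 1.30 (adjusted p = 0.0626) did not pass. None of the cytotoxic genes passed without radiation replicate 1, radiation replicate 3, Complex 1 replicate 1 or Complex 1 replicate 2. There were 5 that passed without radiation replicate 2, 8 without Complex 1 replicate 3 and 17 without both, libraries that were picked by their T cell genes.

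No T cell marker passed between the treatments. Of 20 listed members 16 were tested (Cd247, Cd5, Cd6 and Foxp3 lay under the filter), and the median log2 was 0.31. Cd3e, a subunit of the T cell receptor complex, stood at 0.93, 0.68 and 2.11 FPKM with Complex 1 and 2.37, 0.41 and 2.17 with radiation (log2 fold change 0.41 ± 0.52 (SE), adjusted p = 0.665). Cd8a, the coreceptor of cytotoxic T cells, stood at 2.94, 3.98 and 7.61 against 7.65, 1.06 and 7.41 (log2 fold change 0.15 ± 0.51 (SE), adjusted p = 0.885). In both genes radiation replicate 2 was the lowest of the 6 libraries and Complex 1 replicate 3 stood with radiation replicates 1 and 3. Without these 2 libraries 14 of the 16 markers passed toward radiation, but the pair was picked by this list, so the direction follows from the choice. The same choice bears on MHC class I presentation, where 0 of 18 genes passed with all libraries and 13 without the pair, and on immune checkpoints, where 1 of 13 and 7 did. The 1 checkpoint gene was Lgals9, which encodes galectin-9 (0.59 ± 0.10, adjusted p = 0.00479).

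Part of the macrophage genes were higher with radiation. Of 22 listed macrophage and monocyte markers 21 were tested, 5 were higher with radiation and none with Complex 1, with a median log2 of 0.37. Whether called or not, 16 members had a log2 fold change toward radiation and 5 toward Complex 1, the lowest at -0.54. In 1 member every Complex 1 library lay above every radiation library. Lyz2, the lysozyme of macrophages and other myeloid cells, stood at 776, 736 and 807 FPKM with Complex 1 and 1184, 1239 and 1295 with radiation (log2 fold change 0.68 ± 0.10 (SE), adjusted p = 0.00209). Adgre1, the macrophage surface protein F4/80, stood at 12.9, 17.8 and 19.5 against 31.9, 28.4 and 35.7 FPKM (log2 fold change 0.93 ± 0.13 (SE), adjusted p = 0.00220). C1qa, a chain of complement C1q, stood at 248, 236 and 258 against 339, 309 and 388 FPKM (log2 fold change 0.48 ± 0.09 (SE), adjusted p = 0.00619). None of these genes overlapped between treatments, and the Complex 1 libraries lay mostly above the untreated ones.

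Relative to untreated tumours Adgre1 had a log2 fold change of 1.35 (adjusted p = 1.74e-04) with radiation and 0.41 (adjusted p = 0.215) with Complex 1, and Lyz2 had 1.08 (adjusted p = 7.31e-05) and 0.40 (adjusted p = 0.0792). Lyz1, a near copy of Lyz2 with 34.2% of its 31-base sequences shared, differed by 2.33 ± 0.29, adjusted p = 0.00111. Apoe, which carries lipid out of macrophages, differed by 0.79 ± 0.17, adjusted p = 0.0126 and C1qb by 0.40. Csf1r, the growth factor receptor of all macrophages, was at -0.01 (adjusted p = 0.979) and Cd68 at 0.41 (adjusted p = 0.0576). The count of 5 became 3 without radiation replicate 1 or Complex 1 replicate 2, 11 without Complex 1 replicate 3 and 13 without it and radiation replicate 2. Lyz2, Adgre1 and C1qa passed whichever library was left out.

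The macrophage surface genes Siglec1 and Vsig4, which were outside the list, were also higher with radiation. Siglec1, the sialic-acid-binding receptor CD169, stood at 12.8, 14.8 and 12.6 FPKM with Complex 1 and 24.5, 28.3 and 28 with radiation (log2 fold change 1.01 ± 0.10 (SE), adjusted p = 2.40e-04). Vsig4, a complement receptor of resident macrophages, had the largest fold of any named gene on this side, from 0.37, 0.04 and 0.04 to 1.13, 2.74 and 0.94 FPKM (log2 fold change 3.29 ± 0.71 (SE), adjusted p = 0.0136), at levels close to detection and with an adjusted p of 0.066 without Complex 1 replicate 2. Vsig4 reached the filter only through libraries of radiation or of both treatments, so the filter favours this direction. Ccl8, a chemokine for monocytes, stood at 76, 79.2 and 184 against 296, 323 and 413 FPKM (log2 fold change 1.61 ± 0.29 (SE), adjusted p = 0.00718) with no overlap, and passed without each library in turn. It was the 1 of 12 tested CC chemokines higher with radiation. Ccl3 was the 1 higher with Complex 1 (-1.26 ± 0.37, adjusted p = 0.0490), with groups that overlapped at 7.77, 13.5 and 31 against 7.28, 5.85 and 8.62 FPKM. Without Complex 1 replicate 3 the log2 fold change of Ccl3 was -0.54 with an adjusted p of 0.15, and the call held in 1 of the 6 fits that leave out a library, the one without Complex 1 replicate 1.

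Smaller myeloid groups pointed the same way in the genes that passed. Among lipid-associated macrophage genes, 4 of 16 tested were higher with radiation (median 0.31): Apoe, the lysosomal proteases Ctsd at 0.47 ± 0.11, adjusted p = 0.0178 and Ctsb at 0.42 ± 0.10, adjusted p = 0.0201, and Cd63 at 0.22. That count was 1 without radiation replicate 1 or Complex 1 replicate 1, 0 without Complex 1 replicate 2 and 8 without Complex 1 replicate 3. Of the 16, 11 had a log2 fold change toward radiation and 5 toward Complex 1, the lowest at -0.41. In 1 member every Complex 1 library lay above every radiation library. Gpnmb, a lysosomal glycoprotein of the same cells, did not pass at 0.52 (adjusted p = 0.0824). The T cell costimulators Cd80 and Cd86 were 2 of 8 tested dendritic cell markers higher with radiation, at 0.74 ± 0.11, adjusted p = 0.00302 and 0.45 ± 0.13, adjusted p = 0.0438. Cd80 passed without each library in turn, and Cd86 passed in none of those 6 fits. Complement C3 at 0.70 ± 0.15, adjusted p = 0.0123 and factor B, Cfb, at 0.88 ± 0.20, adjusted p = 0.0154 were 2 of 13 complement genes (median 0.48), and 75.5% of the 31-base sequences of Cfb are shared with another locus. The complement count was 1 without radiation replicate 1, Complex 1 replicate 1 or Complex 1 replicate 2, and 8 without Complex 1 replicate 3.

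Part of the neutrophil genes were higher with Complex 1. Of 25 listed members 16 were tested, 8 were higher with Complex 1 and none with radiation. The filter favours this direction: 6 of the 16 (Cxcr2, Retnlg, Mmp8, Wfdc21, Stfa2l1 and Asprv1) reached it only through libraries of Complex 1 or of both treatments, and they include 3 of the 8 calls. Of the other 10 members 5 were higher with Complex 1. S100a9 (ENSMUSG00000056071, chr3:90599939-90603028, minus strand in mm39) and S100a8 (chr3:90576285-90577342, plus strand) encode the subunits of calprotectin, the main cytosolic protein of neutrophils. S100a9 stood at 85.2, 142 and 62.3 FPKM with Complex 1 and at 11.1, 2.93 and 21.1 with radiation (log2 fold change -3.04 ± 0.48 (SE), adjusted p = 0.00350). S100a8 stood at 18, 41.8 and 15.2 against 2.57, 0.84 and 4.56 FPKM (log2 fold change -3.22 ± 0.49 (SE), adjusted p = 0.00297). In both genes every Complex 1 library lay above every radiation library, and the radiation libraries lay around the untreated ones. Against control S100a9 had a log2 fold change of 3.63 (adjusted p = 0.00857) with Complex 1 and 0.59 (adjusted p = 0.539) with radiation.

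Cxcr2, the chemokine receptor of neutrophils, stood at 1.01, 1.03 and 1.34 against 0.40, 0.31 and 0.26 FPKM (log2 fold change -1.79 ± 0.39 (SE), adjusted p = 0.0152), with an adjusted p of 0.053 without radiation replicate 3. Mmp9, the gelatinase of neutrophil granules, stood at 5.42, 5.11 and 5.11 against 2.30, 1.48 and 2.49 FPKM (log2 fold change -1.32 ± 0.23 (SE), adjusted p = 0.00624). Clec4e at -1.42, Mmp8 at -1.35, Lcn2 at -1.28 and Asprv1 at -2.21 also passed. Csf3r, the receptor for the neutrophil growth factor G-CSF, did not: it stood at 6.81, 7.14 and 8.33 FPKM with Complex 1 and 7.40, 4.82 and 7.21 with radiation (adjusted p = 0.522), both above the 3.69, 2.52 and 3.07 of the controls. Slfn4 likewise did not pass, at -0.17 (adjusted p = 0.809). Ly6g, a defining surface marker of mouse neutrophils, and the granule genes Camp, Ngp, Ltf, Elane and Mpo stayed at or below 0.27 FPKM in all 6 libraries. The summed FPKM of the list was 183 to 267 with Complex 1, 58.0 to 84.5 with radiation and 31.2 to 47.4 in controls. The count of 8 was 4 without radiation replicate 1 and 5 without Complex 1 replicate 2, and 7 without Complex 1 replicate 3 and radiation replicate 2.

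Chemokines that bind CXCR2 were among the largest differences. The promoters of Cxcl2 and Cxcl3, neighbours on chromosome 5, are shown because both hold a match to the NF-kB motif GGGANTTTCC, searched on both strands and given in capitals, in the 250 bases before the RefSeq start site (GRCm38.p6).
Cxcl2: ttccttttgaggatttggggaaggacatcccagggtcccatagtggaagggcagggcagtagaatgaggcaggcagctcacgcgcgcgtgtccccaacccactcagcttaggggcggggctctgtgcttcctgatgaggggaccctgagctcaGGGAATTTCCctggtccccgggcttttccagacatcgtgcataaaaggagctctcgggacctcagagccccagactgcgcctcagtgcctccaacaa
Cxcl3: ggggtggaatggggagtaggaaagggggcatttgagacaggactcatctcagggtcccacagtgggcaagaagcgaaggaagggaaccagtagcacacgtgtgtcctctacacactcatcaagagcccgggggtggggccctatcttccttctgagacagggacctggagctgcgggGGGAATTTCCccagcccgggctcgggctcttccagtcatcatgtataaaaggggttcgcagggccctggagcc
The windows are chr5:90903649-90903898 and chr5:90785851-90786100, both on the plus strand, and the matches start 97 and 73 bases before the start site. The motif occurs in 112 of 27025 RefSeq promoters (0.414%) and in 5 of the 14 promoters of listed inflammatory genes (35.7%), which are those of Cxcl1, Cxcl2, Cxcl3, Il6 and Csf1. It occurs in 4 of 503 promoters of genes higher with Complex 1 (0.795%) and in 2 of 387 of genes higher with radiation (0.517%). A match says nothing about direction: Csf1 was higher with radiation, and Cxcl1 and Il6 did not pass.

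Cxcl2 stood at 6.85, 19 and 18.6 FPKM with Complex 1 and at 1.40, 0.71 and 2.67 with radiation (log2 fold change -3.21 ± 0.45 (SE), adjusted p = 0.00211). Cxcl3 stood at 1.51, 4.20 and 3.04 against 0.27, 0.17 and 0.74 FPKM (log2 fold change -2.88 ± 0.56 (SE), adjusted p = 0.00906). Il1b, which encodes the inflammatory cytokine interleukin 1 beta, stood at 24.3, 34.4 and 33.4 against 9.33, 5.40 and 11.7 FPKM (log2 fold change -1.80 ± 0.37 (SE), adjusted p = 0.0117). None of the 3 genes overlapped between treatments, and all 3 passed without each library in turn. Against control, Cxcl2 had a log2 fold change of 3.65 (adjusted p = 0.00734) with Complex 1 and 0.45 (adjusted p = 0.646) with radiation, and Il1b 2.13 (adjusted p = 0.0219) and 0.33 (adjusted p = 0.631).

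Of 18 tested inflammatory cytokines and CXCR2 ligands, 4 were higher with Complex 1 and 1 with radiation. Among the 18, Cxcl3, Ppbp, Il6 and Csf3 reached the filter only through libraries of Complex 1 or of both treatments. The fourth was Nlrp3, the inflammasome sensor (-0.81 ± 0.23, adjusted p = 0.0432), a call that held in 1 of the 6 fits that leave out a library, the one without Complex 1 replicate 1, and the 1 higher with radiation was the macrophage growth factor Csf1 (0.30 ± 0.08, adjusted p = 0.0312), a call lost without radiation replicate 3 or any 1 of the Complex 1 libraries. Cxcl1, a further CXCR2 ligand whose promoter also holds the motif, overlapped at 26.3, 25.8 and 13.3 FPKM with Complex 1 and 12.5, 6.42 and 24.4 with radiation (adjusted p = 0.485). Il6 stayed at or below 0.50 FPKM in all 6 libraries (adjusted p = 0.549), and Tnf was at 0.34 (adjusted p = 0.562). Il1f9, which encodes interleukin 36 gamma and was not in the list, stood at 1.44, 1.01 and 2.26 against 0.27, 0.16 and 0.39 FPKM (log2 fold change -2.51 ± 0.49 (SE), adjusted p = 0.00912). Il1f9 also reached the filter only through libraries of Complex 1 or of both treatments, so the filter favours this direction. None of 18 NF-kB subunits and feedback genes passed, with a median of 0.05, although 3 were higher with radiation without Complex 1 replicate 3.

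Most genes of DNA replication and nucleotide synthesis were lower with radiation than with Complex 1. All 27 members were tested, 19 were higher with Complex 1 and none with radiation, with a median log2 of -0.37, so the differences were small and shared. Rrm2, the regulated subunit of ribonucleotide reductase, stood at 60.7, 62.3 and 68.5 FPKM with Complex 1 and 42.8, 48.2 and 42.7 with radiation (log2 fold change -0.52 ± 0.08 (SE), adjusted p = 0.00314). Dut, the enzyme that keeps uracil out of DNA, stood at 30.2, 32.5 and 28 against 18.1, 20.9 and 20.9 FPKM (log2 fold change -0.60 ± 0.09 (SE), adjusted p = 0.00234). Mcm7, a subunit of the replicative helicase, stood at 55.1, 55.3 and 54.8 against 40.1, 46 and 39.7 FPKM (log2 fold change -0.39 ± 0.07 (SE), adjusted p = 0.00604), and it overlaps Cops6 and Ap4m1 on the opposite strand. The groups did not overlap in these genes. Pcna at -0.35, Tyms at -0.45, Cdc6 at -0.51 and Mcm2 to Mcm5 at -0.33, -0.36, -0.33 and -0.38 also passed. Against control Rrm2 had a log2 fold change of -0.44 (adjusted p = 0.00441) with radiation and 0.08 (adjusted p = 0.752) with Complex 1, and Dut -0.71 (adjusted p = 6.55e-04) and -0.11 (adjusted p = 0.630). The count was 7 without radiation replicate 1 and 10 without Complex 1 replicate 2.

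Genes of mitosis showed small differences as well. Of 26 proliferation genes, 15 were higher with Complex 1 and none with radiation (median -0.31). Kif23, a motor of cytokinesis, stood at 15.6, 16.1 and 16.2 FPKM with Complex 1 and 10.3, 12.6 and 11.3 with radiation (log2 fold change -0.48 ± 0.07 (SE), adjusted p = 0.00284). Top2a, the topoisomerase of dividing cells, stood at 53, 54.7 and 58 against 39.9, 43.9 and 43.6 (log2 fold change -0.38 ± 0.07 (SE), adjusted p = 0.00912). Mki67, the Ki-67 proliferation marker, stood at 66, 63 and 68.2 against 48.5, 58.8 and 45.7 (log2 fold change -0.37 ± 0.09 (SE), adjusted p = 0.0275). The groups did not overlap in these genes, but radiation replicate 2 was the highest radiation library in all 3, and the call of Mki67 held in 1 of the 6 fits that leave out a library, the one without radiation replicate 2. The count was 1 without radiation replicate 1, 7 without radiation replicate 3, 8 without Complex 1 replicate 1, 5 without Complex 1 replicate 2 and 9 without Complex 1 replicate 3, against 18 without Complex 1 replicate 3 and radiation replicate 2. Kntc1 of the kinetochore (-0.64 ± 0.08, adjusted p = 0.00145) and Stmn1, the microtubule regulator stathmin (-0.65 ± 0.09, adjusted p = 0.00163), which were in no list, passed without each library in turn.

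A part of the repair genes was also higher with Complex 1. Of 37 DNA repair and damage signalling genes, 12 were higher with Complex 1 and 1 with radiation, with a median log2 of -0.24. H2ax, the histone variant phosphorylated at DNA breaks, stood at 63.1, 75.1 and 63.6 FPKM with Complex 1 and 39, 38.2 and 48.9 with radiation (log2 fold change -0.68 ± 0.11 (SE), adjusted p = 0.00406). Parp1, which marks broken DNA with ADP-ribose, stood at 24.1, 25.1 and 23.7 against 18.9, 18 and 19.2 FPKM (log2 fold change -0.37 ± 0.07 (SE), adjusted p = 0.00600). The others were Xrcc6, Exo1, Brca1, Brca2, Palb2, Fancb, Ercc1, Mre11a and the checkpoint kinases Chek1 and Chek2, from -0.65 for Exo1 to -0.27 for Mre11a. The 1 gene higher with radiation was Ercc5, the nuclease XPG of nucleotide excision repair, at 7.49, 7.14 and 7.85 against 11.4, 11 and 10.4 FPKM (log2 fold change 0.55 ± 0.08 (SE), adjusted p = 0.00289), and it passed without each library in turn. Atm, Atr and Prkdc, the kinases that start the damage response, were at 0.01, -0.02 and -0.05, with adjusted p of 0.943, 0.905 and 0.700. The count of 12 was 4 without radiation replicate 1, 7 without radiation replicate 3 or Complex 1 replicate 1 and 6 without Complex 1 replicate 2. Among 8 tested histone genes, H2ax and H2az1 (-0.55 ± 0.10, adjusted p = 0.00643) were higher with Complex 1, while the linker histone H1f2 at 0.56 did not pass (adjusted p = 0.0756).

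Part of the targets of ATF4 and CHOP were lower with radiation than with Complex 1. Of 20 listed members 19 were tested, 9 were higher with Complex 1 and none with radiation, with a median log2 of -0.48. Shmt2 (ENSMUSG00000025403, chr10:127352992-127358313, minus strand in mm39), the mitochondrial enzyme that feeds serine into one-carbon metabolism, had the smallest p of all genes higher with Complex 1. It stood at 123, 114 and 107 FPKM with Complex 1 and 55.8, 70.1 and 62.1 with radiation (log2 fold change -0.88 ± 0.09 (SE), adjusted p = 5.34e-04). Trib3, a pseudokinase induced by CHOP, stood at 28.3, 25.6 and 20.4 against 8.77, 11.7 and 10.6 FPKM (log2 fold change -1.26 ± 0.18 (SE), adjusted p = 0.00239). The groups did not overlap in either gene. Against control Trib3 had a log2 fold change of -1.42 (adjusted p = 9.73e-04) with radiation and -0.15 (adjusted p = 0.772) with Complex 1, and Shmt2 -0.60 (adjusted p = 0.00215) and 0.27 (adjusted p = 0.241).

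The other members that passed make or import amino acids and one-carbon units, or respond to their lack. They were the serine synthesis enzymes Psat1 at -0.59 ± 0.09, adjusted p = 0.00287 and Phgdh at -0.54, Mthfd2 at -0.82, asparagine synthetase Asns at -0.78, the transporter Slc7a5 at -0.65, Chac1 at -1.03 and Atf4 itself at -0.48. Of the 31-base sequences of Phgdh 56.3% occur in another locus, so its counts are uncertain. Aldh18a1, which starts proline synthesis and was in no list, differed by -0.64 ± 0.08, adjusted p = 0.00131. Ddit3, which encodes CHOP, did not pass at -0.35 (adjusted p = 0.138), and it overlaps Mars1 on the opposite strand, which had more counts than Ddit3. Between 6 and 9 members passed without each library in turn, and 9 without Complex 1 replicate 3 and radiation replicate 2. Of 19 chaperones and unfolded protein response genes of the endoplasmic reticulum, only Manf passed (-0.39 ± 0.11, adjusted p = 0.0446), in none of the 6 fits that leave out a library (Creld2 passed without Complex 1 replicate 1), and the chaperone Hspa5 did not (-0.26 ± 0.10, adjusted p = 0.121).

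Part of the cholesterol genes were also lower with radiation than with Complex 1. Of 18 tested genes of cholesterol synthesis, uptake and esterification, 10 were higher with Complex 1 and none with radiation, with a median log2 of -0.48. Soat2, which esterifies cholesterol, stood at 27.9, 26.9 and 15.5 FPKM with Complex 1 and 6.02, 7.15 and 8.61 with radiation (log2 fold change -1.69 ± 0.28 (SE), adjusted p = 0.00432). Lss, which closes the sterol rings, stood at 5.25, 6.31 and 5.13 against 3.54, 4.29 and 3.90 FPKM (log2 fold change -0.51 ± 0.09 (SE), adjusted p = 0.00576). Srebf2, the transcription factor that drives the pathway, was at -0.38, and the synthesis enzymes Mvk, Idi1, Fdps, Fdft1 and Sqle ranged from -0.80 for Idi1 to -0.46 for Fdft1. Against control Soat2 had a log2 fold change of -1.87 (adjusted p = 0.00166) with radiation and -0.18 (adjusted p = 0.830) with Complex 1. The count was 4 without radiation replicate 1, radiation replicate 3 or Complex 1 replicate 2, and Soat2 passed in all 6 fits that leave out a library.

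Some genes of the mitochondrial genome were higher with Complex 1 and others were level. Of 13 such genes 6 were higher with Complex 1 and none with radiation, with a median log2 of 0.03. mt-Nd3 (chrMT:9459-9806), a subunit of respiratory complex I, stood at 14.7, 12.2 and 11.9 FPKM with Complex 1 and 3.53, 4.55 and 4.01 with radiation (log2 fold change -1.68 ± 0.25 (SE), adjusted p = 0.00287). mt-Co2 (chrMT:7013-7696), a subunit of cytochrome oxidase, stood at 188, 141 and 124 against 61.9, 78.8 and 68 FPKM (log2 fold change -1.12 ± 0.15 (SE), adjusted p = 0.00155). The groups did not overlap in either. mt-Atp6 differed by -1.16 ± 0.17, adjusted p = 0.00258, mt-Atp8 by -2.14 ± 0.42, adjusted p = 0.00912, mt-Nd4l by -1.33 and mt-Co3 by -0.90. The counts of most of these genes are uncertain because near copies exist in the nuclear genome: 100% of the 31-base sequences of mt-Co2, 99.9% of mt-Co3, 99.5% of mt-Atp6, 98.9% of mt-Nd4l and 98.1% of mt-Nd3 occur in another locus. For mt-Atp8 it was 7.47%, shared with mt-Atp6, which it overlaps on the same strand. In the 6 libraries mt-Atp8 had 246 counts and mt-Atp6 3552. On its strand mt-Atp6 also overlaps mt-Co3, which had 4232. The 7 genes that did not pass lay between 0.03 and 0.23, and their shared part was 63.9% for mt-Co1, 62.8% for mt-Nd4 and at most 16.8% for the others. The part that shared sequence plays in these differences was not tested. None of 21 nuclear-encoded respiratory chain subunits passed (median -0.07).

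Several lists separated the treatments in few or no members. None of 23 hypoxia and glycolysis genes passed (median -0.08), and Vegfa, the angiogenic growth factor, was at -0.44 ± 0.14, adjusted p = 0.0602. Of the immediate early genes, which respond within minutes to growth signals and stress, Myc alone of 20 passed (-0.47 ± 0.11, adjusted p = 0.0167), while Fos at -0.25 and Egr1 at -0.09 did not (adjusted p = 0.393 and 0.868). Myc did not pass without radiation replicate 1 or 3 or Complex 1 replicate 1 or 2, where its adjusted p was 0.051 to 0.060. None of 5 tested metallothioneins and platinum transporters passed, and Mt1, a metal-binding protein, was at 0.22 ± 0.21, adjusted p = 0.548. Of 16 genes of the NRF2 and glutathione pathway, the glutathione transferase Gsta4 was higher with radiation (0.90 ± 0.14, adjusted p = 0.00302) and the others did not pass. None of 21 fibroblast and matrix genes passed (median -0.01). Among 10 proteases and inhibitors of the matrix Mmp9, Mmp8 and Mmp13 (-0.72 ± 0.17, adjusted p = 0.0205) were higher with Complex 1 and the inhibitor Timp2 was higher with radiation (0.48 ± 0.07, adjusted p = 0.00291), a gene that passed without each library in turn. The 3 became 1 without radiation replicate 1 or 3 or Complex 1 replicate 1 or 2. Of 12 endothelial markers Kdr was higher with Complex 1 (-0.73 ± 0.20, adjusted p = 0.0386), a call lost without radiation replicate 1 or 3 or Complex 1 replicate 1 or 2.

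Lists for tissue next to a tumour were near detection in most members. Cdsn, a protein of the outer epidermis, was higher with Complex 1, at 7.06, 7.73 and 4.36 FPKM against 1.71, 2.38 and 1.56 (log2 fold change -1.76 ± 0.38 (SE), adjusted p = 0.0134), and the controls held 13, 4.94 and 5.50. It was the 1 of 4 tested skin markers that passed, with an adjusted p of 0.063 without radiation replicate 1 and 0.059 without Complex 1 replicate 2. Krt5 and Krt14, defining keratinocyte genes, stayed at or below 0.26 FPKM. None of 4 skeletal muscle, 2 adipocyte, 4 erythroid or 3 B cell and plasma cell markers that were tested passed, and the muscle gene Acta1 reached 10.9 FPKM in radiation replicate 1.

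Outside the lists, Exoc4, a subunit of the exocyst that tethers secretory vesicles, was one of the most uniform differences, at 4.15, 4.10 and 4.51 FPKM with Complex 1 and 6.82, 7.19 and 6.95 with radiation (log2 fold change 0.72 ± 0.06 (SE), adjusted p = 9.10e-05). Hoatz, a gene linked to cilia, stood at 0.34, 0.13 and 0.19 against 2.18, 2.01 and 1.76 FPKM (log2 fold change 3.10 ± 0.41 (SE), adjusted p = 0.00156), and it overlaps Btg4 on the opposite strand. Angptl7, a secreted angiopoietin-like protein, stood at 0.38, 0.18 and 0.08 against 1.53, 1.00 and 1.12 FPKM (log2 fold change 2.44 ± 0.40 (SE), adjusted p = 0.00430), and it lies inside Mtor on the opposite strand, whose 10455 counts in the 6 libraries exceed the 169 of Angptl7. The matrix protein gene Thbs4 differed by 2.20 ± 0.46, adjusted p = 0.0123 and the protease inhibitor Serpina3n by 1.91 ± 0.44, adjusted p = 0.0177, with radiation replicate 2 far above the other radiation libraries in both (4.61, 15.6 and 3.93 FPKM for Thbs4). Without the libraries of radiation and of both treatments, Hoatz, Angptl7 and Serpina3n would not have reached the filter, which favours this direction. On the Complex 1 side, Hirip3, which binds the histone chaperone HIRA, differed by -0.63 ± 0.07, adjusted p = 6.60e-04, and it overlaps Ino80e on the opposite strand with a similar number of counts. Nphs1, which encodes nephrin, stood at 1.12, 1.20 and 1.12 against 0.15, 0.18 and 0.49 FPKM (log2 fold change -2.07 ± 0.45 (SE), adjusted p = 0.0139), and it overlaps the pseudogene Rps12-ps4. Nphs1 reached the filter only through libraries of Complex 1 or of both treatments, which favours this direction. These overlaps are of whole gene spans. Of the 31-base sequences, 0% for Hoatz, 1.41% for Angptl7, 2.70% for Hirip3 and 11.9% for Nphs1 occur in transcripts of another gene, on either strand. Without strand, reads cannot be told apart only in stretches that both genes of a pair cover.

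**Figure D5:**
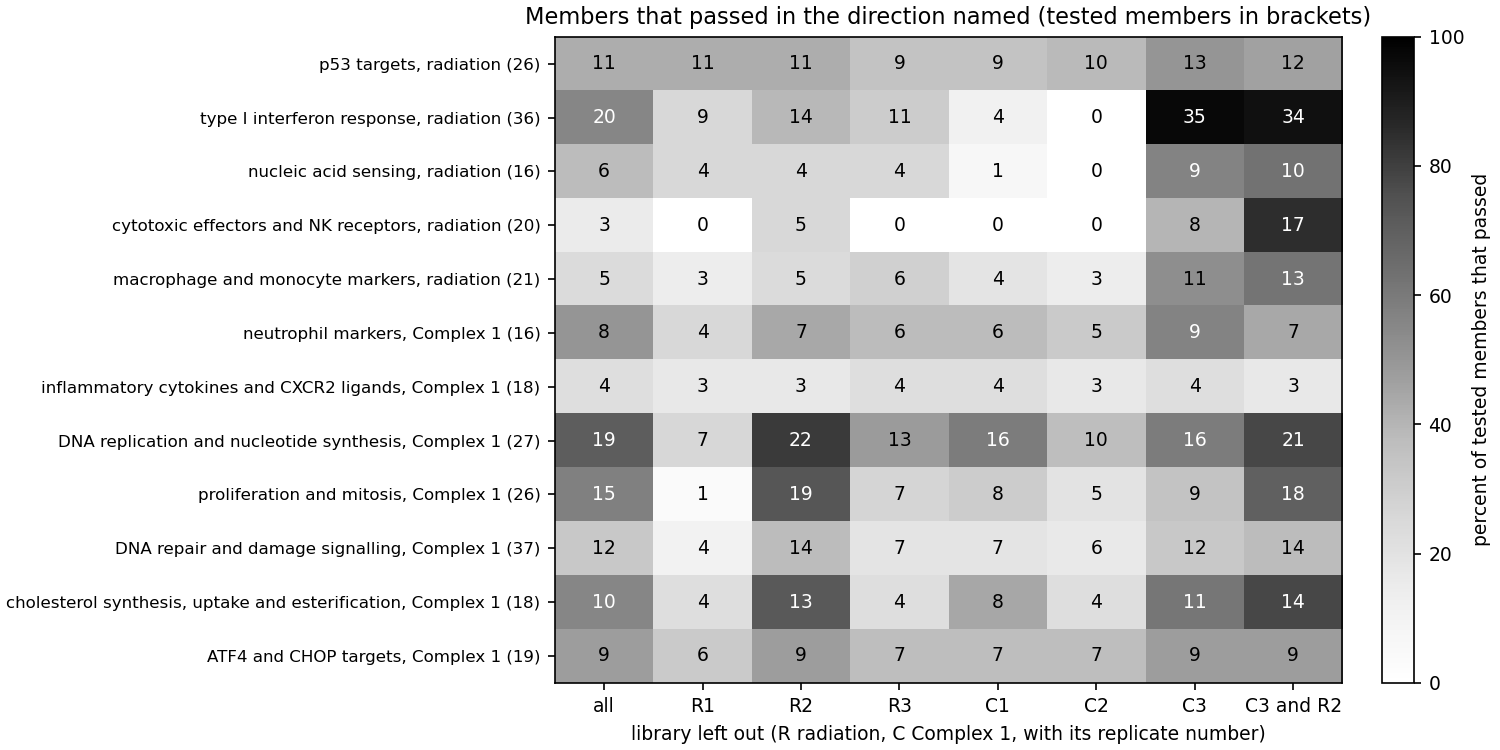
Number of members of 12 gene lists that passed in the direction named, with all libraries and with 1 library or a pair of libraries left out. Shading gives the percent of the tested members. The p53 count stays between 9 and 13 and the ATF4 count between 6 and 9, while the type I interferon count runs from 0 without Complex 1 replicate 2 to 35 without Complex 1 replicate 3.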

How the data were processed

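Total RNA of 12 CT26 tumour libraries was used, per the labels. The submitters' processing notes name mm39 and the tools STAR 2.5.3a, DESeq2 and HTSeq 2.0.1 without saying what each did. For the strand setting, the annotation and any filter, nothing is given in the sources used here. The deposited table holds whole-number counts per gene and library for 55415 entries. It also holds the authors' FPKM, which equal, within 0.005, each count divided by the deposited exonic length in kilobases and by the library's total in mega counts. Entries without a symbol (1492) held 0.0579% to 0.0706% of a library's counts. They were not removed, and any that met the filter below was tested, counted and not named.

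A gene was tested if 3 or more of the 12 libraries had an FPKM of 1 or more, which left 13668. TMM scaling was used, with edgeR 4.0.16 (R 4.3.3, quasi-likelihood, a mean per group over all 12 libraries, Benjamini-Hochberg over all tested genes, adjusted p under 0.05). In the 6 libraries, 3 counts were worth 0.0791 to 0.0961 FPKM for a gene of 2 kb, a floor that covers counting error only. On simulated counts for this comparison (13668 genes), 53% of 100 genes changed 1.5-fold and 76% of 100 changed 2-fold were called, with 8 false calls. The comparison, the gene lists and the rules were chosen with earlier results of these data known.

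Named genes are, per direction, the 12 largest differences without overlap between groups and the 6 smallest p, then the 3 smallest p of each list with a call, and 41 fixed genes. In all 110 genes met these rules, of which a few are not reported here. Other list members are named as examples with values. Predicted genes and pseudogenes were counted and not named (33 of the calls toward radiation and 142 toward Complex 1). Shared sequence is how many percent of the 31-base stretches of a gene also lie in another GENCODE M21 locus (GRCm38). Of the 110 genes 20 had at least 20% and 9 at least 50%, among them Cfb, Hspa1a, Hspd1, Mt2, Naip5, mt-Atp6, mt-Co2 and mt-Nd3. Promoters are RefSeq windows in GRCm38.p6.

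Replicates of a group differed by more than counting noise (chi-square per degree of freedom 8.12 to 24.8). Alternatives were other scalings, a gene length offset, no filter, only the 6 libraries, a replicate block, DESeq2 1.42.0, limma 3.58.1 on log2(FPKM + 1) or log2(FPKM + 0.1), and leaving out libraries. DESeq2 gave no adjusted p for 531 genes, which were left out of its counts.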

Additional observations from a re-analysis of the deposited data

How the results depend on the processing

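The counts of 513 genes higher with radiation and 751 higher with Complex 1 became 968 and 1139 without the filter on low genes, where more genes were tested, and 228 and 404 with only the 6 libraries compared, where fewer libraries estimate the spread. Leaving out 1 library gave 139 to 731 and 210 to 709. Leaving out Complex 1 replicate 3 and radiation replicate 2 together, a setting added after seeing the data, gave 884 and 748. The causes of the changes with single libraries were not tested. Median-ratio size factors gave 554 and 696, library totals 531 and 730, upper quartiles 503 and 771, removal of a length trend 510 and 675, DESeq2 736 and 896, and limma 423 and 676 or, with the smaller pseudocount, 420 and 660. No gene was called in opposite directions by any of these settings and the reported one.

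Replicate numbers gave no sign of pairing: same-numbered radiation and Complex 1 libraries deviated from their group means with correlations of -0.018, 0.052 and 0.087. Pairs with unlike numbers ranged from -0.195 to 0.177. Such correlations cannot show whether same-numbered libraries were handled together, which the labels do not say. The fit with the replicate number as a block gave 559 and 749 genes, of which 465 and 674 were shared with the fit without it.

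Of the 89 named genes that passed, 54 still passed without Complex 1 replicate 2, 63 without radiation replicate 1, 67 without Complex 1 replicate 1, 72 without radiation replicate 3, 78 without radiation replicate 2 and 83 without Complex 1 replicate 3. The sign of a log2 fold change reversed only in genes that did not pass. Cd8a was -0.058 and -0.17 with limma and ranged from -0.19 to 0.64 over the fits that leave out 1 library, with negative values without radiation replicate 1 or 3 or Complex 1 replicate 1. Over the same fits Slfn4 ranged from -0.61 to 0.32, positive without radiation replicate 1 or Complex 1 replicate 3, and Egr1 from -0.28 to 0.17, positive without Complex 1 replicate 1. Csf3r was 0.076 without Complex 1 replicate 3 and radiation replicate 2.

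With 3 libraries a side a true difference can go undetected: the simulated run called 53% of the 100 genes changed 1.5-fold. It held no smaller change and fewer changed genes than were called here, so the share detected in these data was not tested. Genes under the filter were not analysed here.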

Other observations

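Genes of inflammatory cell death were split between the treatments. Of 14 tested members, Casp4, the caspase that senses bacterial lipopolysaccharide, was higher with radiation at 8.83, 7.60 and 12.9 FPKM with Complex 1 against 15.9, 14.2 and 14.7 (log2 fold change 0.61 ± 0.15 (SE), adjusted p = 0.0285), as was the inflammasome receptor Naip5 (0.46 ± 0.12, adjusted p = 0.0312), of whose 31-base sequences 53.1% are shared. Il1b and Nlrp3 were higher with Complex 1, at -1.80 and -0.81, and Nlrp3 held in 1 of the 6 fits that leave out a library. Casp4 passed without radiation replicate 2 and without Complex 1 replicate 3, Naip5 without radiation replicate 1 and without Complex 1 replicate 3, and neither in the other 4 of these fits. The pore-forming protein genes Gsdmd and Gsdme were at 0.14 and -0.12 (adjusted p = 0.465 and 0.497).

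In the list of 15 cytosolic heat shock genes, the small chaperone Cryab was higher with radiation (0.90 ± 0.24, adjusted p = 0.0372). Hspd1, a mitochondrial chaperonin despite the name of the list, was higher with Complex 1 (-0.39 ± 0.08, adjusted p = 0.00922). Of the 31-base sequences of Hspd1 53.1% occur in another locus, so its counts are uncertain. Cryab stood at 16.9, 13.3 and 19.2 FPKM with Complex 1, 34.3, 28.9 and 29.5 with radiation and 27.9, 47.3 and 19.4 in controls, so the Complex 1 libraries were the lower ones. The call held in 1 of the 6 fits that leave out a library, the one without Complex 1 replicate 3, and that of Hspd1 was lost without radiation replicate 1. Against control the log2 fold change of Cryab was -0.97 (adjusted p = 0.0960) with Complex 1 and -0.06 (adjusted p = 0.901) with radiation. That of Hspd1 was -0.13 (adjusted p = 0.526) with Complex 1 and -0.52 (adjusted p = 0.00158) with radiation.

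The 2 sets of called genes differed in make-up. Pseudogenes were 113 of the 751 genes higher with Complex 1 (15.0%) and 6 of the 513 higher with radiation (1.17%), against 1030 of all 13668 tested (7.54%). The median exonic length was 3271 bases among genes higher with Complex 1, 4781 among genes higher with radiation and 3707.5 over all tested genes. With a trend on gene length removed from each library, 634 of the 751 and 460 of the 513 genes were still called.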
